A study of Drosophila melanogaster with 4 samples.

Results

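The Polycomb group genes described here are 10 genes of Drosophila melanogaster, taken by their FlyBase symbols: Psc, Su(z)2, ph-d, ph-p, Pc and Sce, which encode subunits of Polycomb repressive complex 1 (PRC1), E(z), esc and Su(z)12, which encode subunits of Polycomb repressive complex 2 (PRC2), and pho. Of the 10, 9 were matched to one of the 14869 gene IDs counted in the files. Su(z)2 could not be matched to a counted ID through the name table and is not analysed here. All 9 matched genes averaged 20 or more counts per library and so count as measured, as do 7883 genes in all.

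Polycomb group proteins keep developmental genes silent, and in the fly they act through DNA elements that recruit them. PRC2 methylates histone H3 through its catalytic subunit E(z), with esc and Su(z)12 as core partners. PRC1 holds Pc, whose chromodomain binds that methyl mark, Sce, a RING protein that ubiquitinates histone H2A, Psc or its relative Su(z)2 as the RING partner, and a Polyhomeotic protein from the tandem genes ph-d and ph-p. Pho binds DNA at the recruiting elements.

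The cells were S2, a line of embryonic origin grown at 25 degrees, treated with the solvent DMSO (labelled 0 min) or with 40 µM radicicol in DMSO for 15, 30 or 60 min. Radicicol blocks the ATP site of the chaperone Hsp90. Polyadenylated RNA gave 1 library per condition, 4 in all, so a pair of libraries has no replicate error. Gene counts summed to 19153476 for DMSO and to 28614983, 30859475 and 31028233 at 15, 30 and 60 min.

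All 10 haemocyte markers listed for S2 cells were detected in each library. Their log2 folds at 60 min over DMSO ran from -0.05 for He to 1.29 for ush. Pxn, a basement membrane peroxidase gene, had 0.64. By the size rule given below 3 of the 10 were higher, where 19.7% of all measured genes were. After the length correction described below 0 of the 10 were higher, where 9.27% of genes were, and their median was -0.23. Of the neuronal list, nSyb and Syt1 had at most 6 counts in a library. In contrast, elav had 496 counts at 60 min, against 28 in DMSO, and brp had 81, against 16. With the length correction described below their log2 folds at 60 min were 1.64 and -0.38. For elav 27.9% of the exon length overlaps another gene on the same strand, so its count is uncertain. Of the germline list aub had 1515 counts in DMSO and bam had 14. The muscle genes Mlc2 and up had at most 50 counts in a library. The summed level of the neuronal markers was 2.58 CPM in DMSO and 6.18, 4.85 and 19.1 CPM at 15, 30 and 60 min, and its part in the results below was not tested. In such bulk RNA fewer cells of a kind and less RNA per cell cannot be told apart, nor can radicicol and time in culture. The share of reads that were not aligned was between 17.8% and 21.5% with radicicol, against 44.1% in DMSO. For the members, steps between radicicol libraries are therefore given beside the comparisons with DMSO.

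Levels are given in CPM, read counts scaled to a common library size with TMM factors. Brackets after a log2 fold hold its exact 95% interval for counting error alone; duplicate reads of 1 molecule, which no identifier marked, make it too narrow. A gene is called higher or lower when its log2 fold reaches 1 in size and that interval excludes 0. "Rose" and "fell" are kept for genes whose slope over minutes through the 4 libraries passed edgeR's quasi-likelihood test at 0.05 after Benjamini-Hochberg adjustment across every measured gene, with 2 residual degrees of freedom. Its p-values describe scatter about a line in these libraries, not the spread between cultures.

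In outline, Psc changed most of the 9 measured genes: it stood 18.5-fold higher after 60 min of radicicol than in DMSO. Its PRC1 partner genes ph-d and ph-p rose less, and Pc and Sce did not pass the slope test. Su(z)12 and pho rose and esc fell. Of the 9 measured genes 3 were called higher at 60 min, where 19.7% of all measured genes were, and none was called lower, against a background of 12.6%. In the slope test 5 rose and 1 fell, where 34.1% of all measured genes rose and 33.8% fell. Without the 60 min library 2 of the 9 passed, Psc and pho, in a fit that far fewer genes passed in all (number in the last section).

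**Figure D1:**
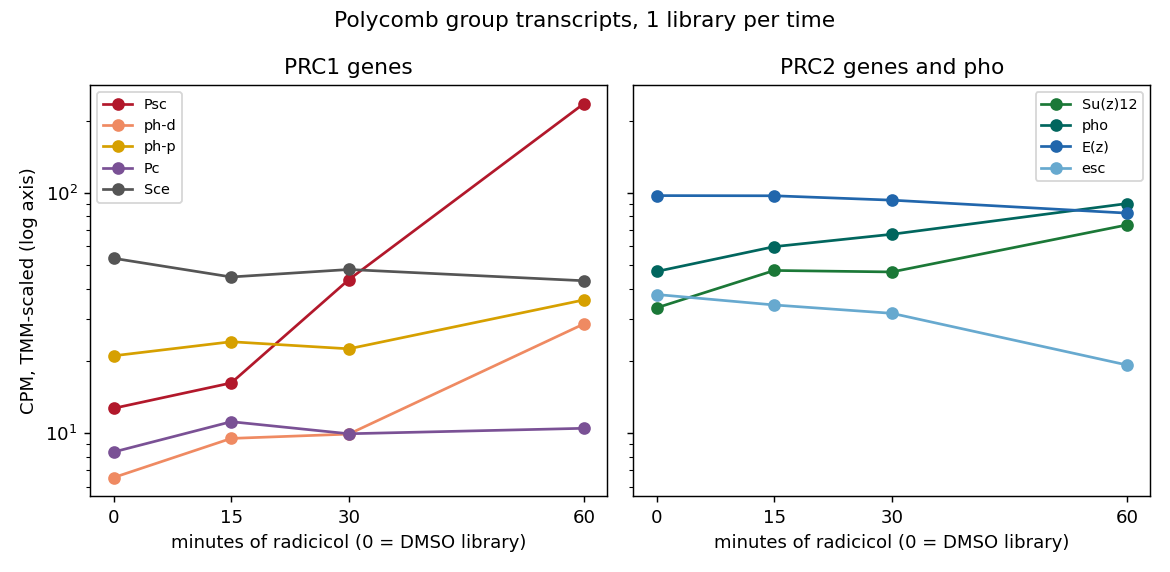
CPM of the 5 measured PRC1 genes (left) and of the PRC2 genes and pho (right) on a log axis against minutes of radicicol, with 1 library per point and the DMSO library at 0. Psc leaves the other PRC1 genes between 15 and 30 min and reaches 235 CPM at 60 min, while E(z) stays between 82.4 and 97.4 CPM.

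Psc (FBgn0005624), the RING partner of Sce in PRC1, had 231 counts in DMSO and 490, 1365 and 7152 counts at 15, 30 and 60 min. These counts correspond to 12.7 CPM in DMSO and 16.2, 43.5 and 235 CPM at the 3 times. The level was slightly above that of DMSO at 15 min and climbed further in both later steps. The log2 fold against DMSO was 0.35 (0.12 to 0.58) at 15 min, 1.78 (1.58 to 1.98) at 30 min and 4.21 (4.02 to 4.41) at 60 min. At 30 min Psc was the only one of the 9 genes called higher, where 3.36% of all measured genes were higher and 1.32% lower, and none of the 9 was called at 15 min, where 1.40% of all measured genes were higher and 1.23% lower. Between radicicol libraries alone, the 30 min library stood above the 15 min library by a log2 fold of 1.43 (1.28 to 1.58) and the 60 min library above the 30 min library by 2.43 (2.35 to 2.52). Psc was the only one of the 9 called in the earlier step, where 0.799% of all measured genes were higher and 0.444% lower, and Psc and ph-d were the 2 called in the later step, where 9.81% were higher and 1.03% lower. Psc rose with a slope of 4.49 ± 0.28 log2 per 60 min (SE of the fit, edgeR adjusted p = 0.000267). At 60 min its log2 fold lay at percentile 99.4 of all measured genes.

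The tandem genes ph-d and ph-p encode closely related Polyhomeotic proteins and neighbour each other on the X chromosome. ph-d (FBgn0004860) had 119 counts in DMSO and 288, 311 and 867 counts at 15, 30 and 60 min, or 6.54, 9.52, 9.92 and 28.5 CPM. Most of its change came after 30 min. Its log2 fold was 0.54 (0.23 to 0.86), 0.60 (0.29 to 0.92) and 2.12 (1.85 to 2.41) at the 3 times, and the step from 30 to 60 min alone was 1.52 (1.33 to 1.71). Thus ph-d was called higher at 60 min and rose by 2.10 ± 0.25 log2 per 60 min (SE, edgeR adjusted p = 0.000964).

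ph-p (FBgn0004861) had 382 counts in DMSO and 727, 704 and 1091 counts at 15, 30 and 60 min, or 21.0, 24.0, 22.5 and 35.9 CPM. Its level was nearly flat to 30 min and higher at 60 min without reaching 2-fold. The log2 fold at 60 min was 0.77 (0.60 to 0.94), the step from 30 to 60 min was 0.68 (0.54 to 0.81), and the gene rose by 0.75 ± 0.17 per 60 min (SE, edgeR adjusted p = 0.00828). The share of ph-d in the counts of both genes, which depends on no library size, was 23.8% in DMSO (exact binomial interval 20.1 to 27.7%) and 28.4% (25.6 to 31.3%), 30.6% (27.8 to 33.6%) and 44.3% (42.1 to 46.5%) at 15, 30 and 60 min. The 60 min interval lies above those of the other 3 libraries. As reads of similar genes can be assigned to either copy or dropped, and the files list 0 reads with several alignments, the split between the copies is uncertain. Their sum does not depend on which copy a read is assigned to, but it would lack dropped reads. It had a log2 fold of 1.22 (1.08 to 1.37) at 60 min, where the length curve described below gave 1.19 for ph-d and 1.31 for ph-p.

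**Figure D2:**
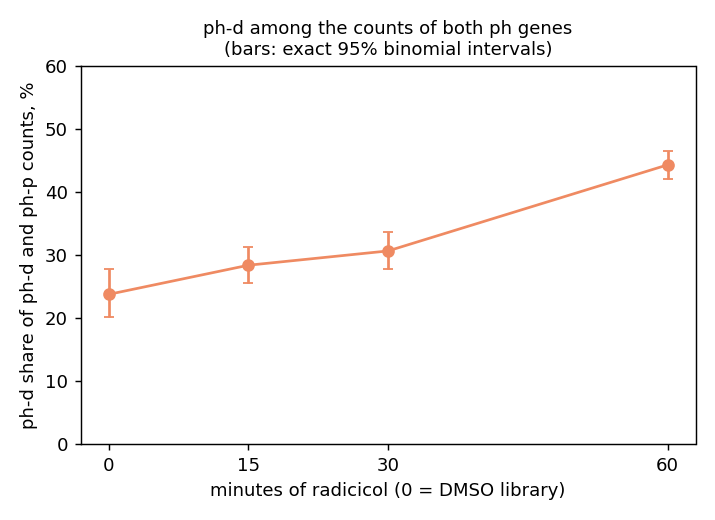
Share of ph-d in the summed counts of ph-d and ph-p, in percent, against minutes of radicicol, with exact 95% binomial intervals and the DMSO library at 0. The share is 44.3% at 60 min, against 23.8% in DMSO.

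Pc (FBgn0003042), the chromodomain subunit, was the least abundant PRC1 gene in counts at 60 min, with 152 counts in DMSO and 338, 312 and 319 at 15, 30 and 60 min. This corresponds to 8.36, 11.2, 9.95 and 10.5 CPM. All radicicol libraries lay above DMSO by a small margin, within counting error at 30 min, and did not differ from each other beyond counting error. The log2 fold was 0.42 (0.14 to 0.70) at 15 min and 0.33 (0.04 to 0.62) at 60 min, with a slope of 0.20 ± 0.23 (SE, edgeR adjusted p = 0.475). Sce (FBgn0003330), the RING subunit that carries the ubiquitin ligase activity, had 53.4 CPM in DMSO and 44.7, 48.0 and 43.1 CPM at 15, 30 and 60 min, from 972, 1352, 1505 and 1311 counts. Its log2 fold at 60 min was -0.31 (-0.43 to -0.19) against DMSO and -0.05 (-0.16 to 0.06) against the 15 min library, and its slope of -0.25 ± 0.13 did not pass (edgeR adjusted p = 0.143; without the 15 min library it was -0.31 and passed, edgeR adjusted p = 0.0463).

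Among the PRC2 genes, Su(z)12 (FBgn0020887), a core subunit needed for the activity of the complex, had 605 counts in DMSO and 1439, 1470 and 2238 at 15, 30 and 60 min. Its CPM were 33.3, 47.6, 46.9 and 73.6 in the same order. The 15 and 30 min libraries were alike, and the 60 min library was the highest. At 60 min Su(z)12 was called higher with a log2 fold of 1.15 (1.01 to 1.28), and it rose by 1.05 ± 0.16 per 60 min (SE, edgeR adjusted p = 0.00191). Against the 15 min library the fold at 60 min was 0.63 (0.53 to 0.73) and short of the call. In that comparison, which leaves DMSO out, Psc and ph-d were called higher and no member lower, where 13.0% of all measured genes were higher and 2.90% lower.

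E(z) (FBgn0000629), the histone methyltransferase, was the most abundant of the 9 in DMSO with 97.4 CPM (1772 counts), and had 97.3, 93.3 and 82.4 CPM at 15, 30 and 60 min from 2943, 2924 and 2506 counts. The log2 fold at 60 min was -0.24 (-0.33 to -0.15) against DMSO and also -0.24 (-0.32 to -0.16) against the 15 min library, with a slope of -0.26 ± 0.10 that did not pass (SE, edgeR adjusted p = 0.0673). When the 50 genes with most counts were kept out of the library size, its slope was -0.41 and passed (edgeR adjusted p = 0.0388). esc (FBgn0000588), the WD-repeat subunit of PRC2, had 37.8 CPM in DMSO and 34.2, 31.5 and 19.2 CPM at 15, 30 and 60 min, from 687, 1034, 989 and 585 counts. The 60 min library was the lowest, and the step from 30 to 60 min was -0.71 (-0.86 to -0.57), while that from 15 to 30 min was within counting error. Its log2 fold at 60 min was -0.97 (-1.14 to -0.81), just short of 2-fold, and it fell with a slope of -0.98 ± 0.15 (SE, edgeR adjusted p = 0.00216).

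pho (FBgn0002521), the DNA-binding member, had 47.1 CPM in DMSO and 59.8, 67.3 and 90.3 CPM at 15, 30 and 60 min, from 857, 1808, 2109 and 2746 counts. Each later library was higher than the one before. The log2 fold at 60 min was 0.94 (0.83 to 1.05), again short of 2-fold, and against the 15 min library it was 0.60 (0.51 to 0.68). pho rose by 0.90 ± 0.11 per 60 min (SE, edgeR adjusted p = 0.00111).

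Per kilobase of exon, which allows levels of different genes to be compared within a library, the order of the genes at 60 min was not that of DMSO. At 60 min pho at 37.9 CPM per kb (95% Poisson interval 36.5 to 39.4) and Psc at 37.1 (36.3 to 38.0) were the highest and not separable from each other. E(z) at 30.9, Sce at 28.0 (26.5 to 29.5), Su(z)12 at 18.0 and esc at 11.3 came next. At the low end were ph-p at 5.21, ph-d at 4.65 (4.35 to 4.97) and Pc at 4.26 (3.80 to 4.75), of which the last pair was not separable. Of the summed level per kb of the 5 PRC1 genes, Psc took 46.9% at 60 min, against 4.54% in DMSO, and Sce took 35.3%, against 78.5%. The length curve described below gave log2 folds at 60 min of 1.22 for Psc, 0.08 for pho and -0.38 for Sce. Dividing by length within a library does not remove this relation. Its part in the order and shares, at 60 min or in DMSO, was not tested.

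In DMSO the highest per kb were E(z) at 36.6 CPM per kb (34.9 to 38.3) and Sce at 34.7 (32.5 to 36.9), whose ratio did not differ from 1 beyond counting error. They were followed by esc at 22.2, pho at 19.8 and Su(z)12 at 8.12. Lowest were Pc at 3.39 (2.88 to 3.98) and ph-p at 3.05 (2.75 to 3.37), which were not separable, then Psc at 2.01 (1.76 to 2.28) and ph-d at 1.07 (0.88 to 1.28). In DMSO 4 of the 5 measured PRC1 genes were below every PRC2 gene. Sce alone made up 78.5% of the summed level per kb of these 5, which leaves out Su(z)2.

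The median of the PRC1 genes stood above that of PRC2 and pho at 60 min, but the genes of each group went different ways. The median log2 fold of the 5 PRC1 genes was 0.77, with a range of -0.31 to 4.21, and that of the 4 genes E(z), esc, Su(z)12 and pho was 0.35, with a range of -0.97 to 1.15, beside -0.02 over all measured genes. The difference of the medians was 0.42. Without ph-d and ph-p the difference turned to -0.021, and only Psc then stood above the range of the other group. At 15 min the medians were 0.35 for PRC1 and 0.17 for PRC2 and pho, and at 30 min 0.25 and 0.22. Genes are not replicates of a condition, so the difference was not tested.

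The fold depended on transcript length across the whole transcriptome, and the groups differ in length. The median exon length was 6126 bases for the PRC1 genes and 2523 bases for the PRC2 genes and pho, beside 2036 bases for all measured genes. Psc, ph-d and ph-p have 6332, 6126 and 6887 bases, Pc and Sce 2462 and 1542, Su(z)12, pho, E(z) and esc 4098, 2381, 2665 and 1704. At 60 min the median log2 fold was 1.02 in the 1804 genes with the longest exons (from 3344 bases) and -0.82 in the 1804 with the shortest (to 1281 bases). Of the longest genes 51.0% were called higher, and of the shortest 4.04%. At 15 min the medians of these longest and shortest genes were 0.32 and -0.31.

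**Figure D3:**
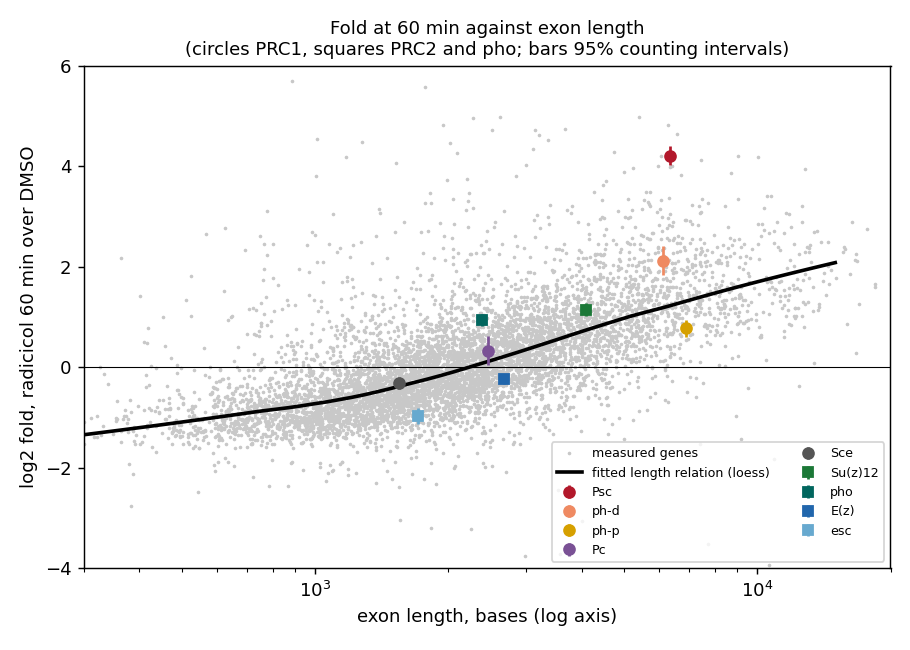
Log2 fold of radicicol 60 min over DMSO against exon length in bases on a log axis, for measured genes (grey), with the fitted length relation (line) and the 9 Polycomb genes (circles PRC1, squares PRC2 and pho, bars 95% counting intervals); genes beyond the axes are not drawn. Psc lies 2.99 above the line, whereas ph-p lies 0.54 below it, pho and ph-d lie above it, and Sce and Pc lie close to it.

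With a smooth curve of log2 fold on exon length subtracted, Psc was the only member called at 60 min. The curve alone gave a log2 fold of 1.22 at the length of Psc and left a corrected fold of 2.99, at percentile 98.9 of the 7219 genes with a length. In those genes 9.27% were called higher and 4.49% lower after correction. At 30 min the corrected fold of Psc was 1.35, again called, where 2.35% of genes were called higher and 0.859% lower, and at 15 min it was -0.03. For ph-d the curve gave 1.19 of the fold of 2.12 and left 0.94, short of the call. For ph-p the curve gave 1.31, more than the gene's fold of 0.77, and left -0.54. The corrected folds were 0.21 for Pc and 0.07 for Sce.

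Among the shorter genes the correction moved less. Su(z)12 went below 2-fold with a corrected fold of 0.40, pho kept 0.86, E(z) had -0.45 and esc -0.69. The corrected medians at 60 min were 0.21 for PRC1 and -0.02 for PRC2 and pho, a difference of 0.23, beside -0.01 for all genes with a length. The corrected range of PRC1 was -0.54 to 2.99 and that of PRC2 and pho was -0.69 to 0.86. Psc and ph-d were thus the PRC1 genes above the range of the other group. At 15 min the corrected medians stood in the reverse order, at -0.03 for PRC1 and 0.10 for PRC2 and pho. At 30 min they were 0.18 and 0.03.

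With the length curve as an offset in the slope fit, 4 members rose and 3 fell, where 26.9% of genes rose and 26.7% fell. Psc rose with a corrected slope of 3.36 ± 0.28 (SE, edgeR adjusted p = 0.000213) and ph-d with 0.99 ± 0.16 (edgeR adjusted p = 0.00279). pho rose by 0.83 ± 0.08 (edgeR adjusted p = 0.000427) and Su(z)12 by 0.34 ± 0.11 (edgeR adjusted p = 0.0326). Su(z)12 had 0.23 and did not pass without the DMSO library (edgeR adjusted p = 0.126). Without the 60 min library the 2 members that passed were again Psc and pho, a count given here without its share over all genes. Relative to genes of its length ph-p fell, with -0.52 ± 0.09 (edgeR adjusted p = 0.00413), as did E(z) with -0.45 ± 0.07 (edgeR adjusted p = 0.00243) and esc with -0.70 ± 0.13 (edgeR adjusted p = 0.00377). Pc had 0.08 ± 0.19 (edgeR adjusted p = 0.748) and Sce 0.12 ± 0.10 (edgeR adjusted p = 0.35).

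**Figure D4:**
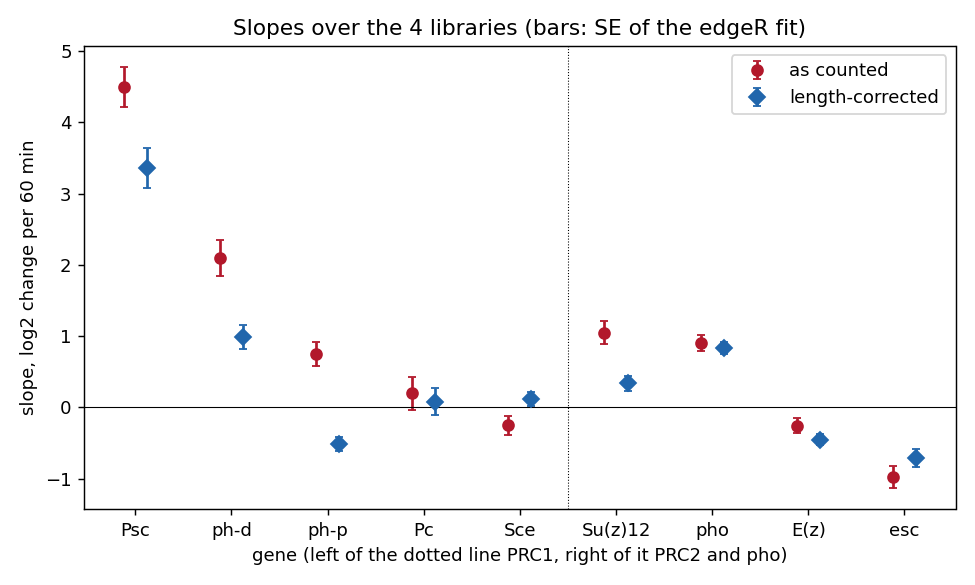
Slopes over the 4 libraries in log2 change per 60 min for each measured gene, as counted (circles) and with the length relation as an offset (diamonds), with the SE of the edgeR fit as bars. The slope of ph-p is 0.75 as counted and -0.52 after correction, and Psc keeps 3.36 of 4.49.

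Which length is used mattered for Pc, pho, ph-p and ph-d. With the distance from gene start to gene end in place of exon length, the corrected slope was -0.75 for Pc (edgeR adjusted p = 0.0192), which spans 11883 bases, and 0.11 for pho (edgeR adjusted p = 0.434), which spans 9160. On that scale ph-p had -0.19 (edgeR adjusted p = 0.209), while Psc had 3.48 and ph-d 1.45 and both still rose. The corrected log2 fold of ph-d at 60 min was then 1.40, past 2-fold, against 0.94 with exon length. That Psc alone was past 2-fold after correction thus holds for exon length only.

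Transcripts with the time course most like that of a member were sought by the distance over the 3 log2 folds against DMSO, for the 3 members called at 60 min. Nearest to Psc were CG13917 at a distance of 0.30 with folds of 0.43, 1.49 and 4.21 at 15, 30 and 60 min, CG30281 at 0.41 and Vrp1 at 0.45. CG30281 had 195 counts at 60 min, against 5 in DMSO, so its folds rest on 5 counts. Vrp1 had 0.73, 1.78 and 3.96. Nearest to ph-d were Wnk, GEFmeso and cno, at distances of 0.05, 0.05 and 0.08, with exon lengths of 8262, 6958 and 13220 bases. Nearest to Su(z)12 were Pdcd4, Sugb and the kinase gene Akt, at distances of 0.03, 0.04 and 0.05. Each of these rests on 4 libraries, which share the DMSO library.

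The genes beside the members were also read from the later annotation, a choice made after values were seen. CG13321, the protein-coding gene beyond the 3' end of Psc, had 50 counts in DMSO and 88, 400 and 857 at 15, 30 and 60 min. It was close to DMSO at 15 min and higher afterwards, with log2 folds of 0.08, 2.21 and 3.36 (2.95 to 3.80 at 60 min). Beyond the 5' end of Psc, CG33798 had 0 counts in every library. Of the measured neighbours that are not members, only CG13321 was called at 60 min, where 19.7% of all measured genes were higher and 12.6% lower. On the outer sides of the ph pair, csw, a phosphatase gene of receptor tyrosine kinase signalling, had 0.71 (0.51 to 0.91) and D2hgdh had -0.78 (-0.86 to -0.70). None of the other measured neighbours of members was called at 60 min: Rpn1 and Pfdn6 beside Su(z)12 had 0.43 and -0.53, hay and Cnep1r2 beside E(z) -0.57 and -0.59, CycY beside esc 0.66, CG33521 beside pho 0.77, CG11309 beside Pc -0.15 and CG12883 beside Sce -0.09.

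Of the other Polycomb group genes, 16 of 19 listed symbols were matched and measured. At 60 min 8 of the 16 were called higher against DMSO, where 19.7% of all measured genes were, and their median log2 fold was 1.04, beside -0.02 over all measured genes. Against the 15 min library 3 were called higher, E(Pc), Kdm2 and corto, where 13.0% of all measured genes were, and against the 30 min library 1, E(Pc), where 9.81% were. In the slope test 10 rose and 1 fell, where 34.1% and 33.8% of all measured genes did. Their median exon length was 4695 bases. Called higher were E(Pc) at 1.55, a subunit gene of a histone acetyltransferase complex, Scm at 1.50, whose product binds PRC1, Kdm2 at 1.44, a histone demethylase gene, mxc at 1.43, which encodes a histone locus body protein, and corto at 1.33. Jarid2 and Pcl, accessory subunits of PRC2, had 1.21 and 1.15, and sxc, the O-GlcNAc transferase gene, had 1.12. Short of the call at the high end were phol, a relative of pho, at 0.96 and jing at 0.88, and at the low end l(3)73Ah at -0.22.

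The gene that fell was l(3)mbt, which encodes a protein with MBT repeats, with a log2 fold of -0.86 (-0.97 to -0.76) at 60 min and a slope of -0.97 (edgeR adjusted p = 0.00347). After the length correction none of the 16 was called higher, and l(3)mbt, whose exons total 5398 bases, was called lower at -1.92. In the corrected slope test 4 of the 16 rose and 5 fell, near the 26.9% and 26.7% of all genes with a length, and their median corrected fold was 0.13. Scm kept 0.77 and sxc 0.51, while E(Pc) with 10946 bases had -0.24 and Jarid2 -0.32.

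Of the listed recruitment factors 5 of 7 symbols were matched and 4 measured. lolal, which encodes a BTB protein that works with GAGA factor, was called higher at 60 min with 1.05 (0.93 to 1.16), and kept a corrected fold of 0.96. cg had 0.60, Spps -0.05 and Trl, the gene of GAGA factor, 0.05. For Trl 77.8% of the exon length overlaps another gene on the same strand, so its count is uncertain. lolal and cg rose as counted; with the correction lolal rose and cg, Trl and Spps fell. Trl had a corrected fold of -1.16 and was called lower.

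Most of the listed targets of Polycomb silencing were nearly undetected in all libraries. Of 26 listed target genes 23 were matched, and 21 of these were below the count filter, with at most 20 counts in a library and 3 of them at 0 in every library. Together the 21 had 92 counts in DMSO and 65, 65 and 94 counts at 15, 30 and 60 min, or 5.06 CPM in DMSO and 2.15, 2.07 and 3.09 CPM. The log2 fold of this sum at 60 min was -0.71 (-1.14 to -0.28) against DMSO and 0.58 (0.10 to 1.05) against the 30 min library.

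The Hox genes Ubx, abd-A, Abd-B, Antp, Scr and Dfd, which set segment identity, summed to 39 counts in DMSO and to 9, 13 and 11 at 15, 30 and 60 min, or 2.14 CPM in DMSO and 0.30, 0.41 and 0.36 CPM. The log2 fold of the sum was -2.85 (-4.08 to -1.78), -2.37 (-3.40 to -1.43) and -2.57 (-3.68 to -1.57) at the 3 times, while the radicicol libraries did not differ from each other beyond counting error. Antp, singled out after its values were seen, had 16 counts in DMSO and 2, 1 and 1 at 15, 30 and 60 min. Its log2 fold at 60 min was -4.74 (-10.1 to -2.06). For Antp 50.1% of the exon length overlaps another gene on the same strand, so its count is uncertain. Without Antp the sum of the other Hox genes had a log2 fold of -1.94 (-3.18 to -0.82) at 60 min. By the size rule 3 of the 17 targets below the filter with any count in the 60 min or DMSO library were lower at 60 min (Antp, Abd-B and Ubx) and 0 higher, where 7.40% of all genes below the filter with such counts were lower and 5.94% higher. Ubx had 0 counts in each radicicol library, against 5 in DMSO. These counts come from 1 library per condition, and the DMSO library is the one with the high share of reads not aligned, whose part in them was not tested.

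The 2 measured targets were tsh, a zinc finger gene of trunk identity, and pnr, a GATA factor gene. tsh rose, with a log2 fold of 0.90 (0.85 to 0.95) at 60 min and a slope of 0.92 (edgeR adjusted p = 0.00137), and had a corrected fold of -0.01. pnr had -0.12 (-0.18 to -0.05) and a corrected fold of -0.93; its corrected slope of -1.05 passed (edgeR adjusted p = 0.00157).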

How the data were processed

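Each file deposited by the authors holds unnormalised counts of reads for FlyBase gene IDs in 1 library. Bowtie, HTSeq and dm3 appear in the submitters' processing notes; the sources used here do not give versions, options, the strand setting or the gene models. Entries that name no gene stayed out of library sizes and tests. Symbols, exon lengths and neighbours came from a later annotation (dm6), so no coordinates are printed; 13524 of 14869 IDs had a symbol and an exon length.

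Counts were analysed in R 4.3.3 with TMM normalisation and quasi-likelihood slope tests of edgeR 4.0.16 on all measured genes, with p adjusted over all of them. DESeq2 1.42.0 served as an alternative. The length relation was a loess curve (span 0.5, symmetric family) of log2 fold on log2 exon length over measured genes. The slope fits were also run on counts simulated with straight-line trends and a common dispersion. Such counts cannot test the p-values against the spread between cultures. The members and gene lists were chosen with earlier results of these data known. Named beside the members were: other Polycomb genes and recruitment factors past the size rule at 60 min plus the 2 highest and 2 lowest of the rest, the measured targets (up to 4 by the rule; 2 were measured), and the 3 nearest time courses per called member.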

Additional observations from a re-analysis of the deposited data

How the results depend on the processing

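Of 135 log2 folds of members recomputed under other scalings and filters, 126 stayed within the counting interval of their main value. The 9 that moved came from total counts as library size or from leaving out the 50 most abundant genes. With total counts the 15 min folds of Sce, E(z), esc, Su(z)12 and pho moved. Those of E(z) and esc changed sign, to 0.15 from -0.002 and to 0.01 from -0.14. Scaling by total counts moved the median of all genes by 0.16 (log2) at 15 min, and a library size without the 50 most abundant genes moved it by -0.12 at 60 min. Without those 50 genes 2 of the PRC2 genes and pho were past 2-fold at 60 min in place of 1, Su(z)12 higher and esc lower (-1.09). With the main scaling 19.7% of all measured genes were higher and 12.6% lower, and the shares without those 50 genes are not given. Against the 15 min library 0 of the PRC2 genes and pho passed, where 13.0% of all measured genes were higher and 2.90% lower. With length-corrected folds at 60 min over DMSO 0 of them and 1 PRC1 gene passed, where 9.27% of genes were higher and 4.49% lower. The difference of medians was -0.021 without ph-d and ph-p. Leaving out 1 library at a time gave 1487 to 5337 of 7883 measured genes past the slope test (5352 with all). Of the members 2 to 7 passed (6 with all), and 2 to 7 with the length correction (7 with all). Each low end is the fit without the 60 min library, in which Psc and pho passed. Without the DMSO library 6 members passed each fit, a count given without its share over all genes. Su(z)12 then no longer passed the corrected fit (0.23, edgeR adjusted p = 0.126). The slope of Pc ranged from -0.084 to 0.46 and its corrected slope from -0.17 to 0.34 when a library was left out; with gene span in place of exon length it was -0.75. The cause was not tested. No paired analysis was possible because each condition has 1 library. The 21 target genes below the count filter had at most 20 counts in a library, which limits what single genes can show.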
